A study of Mus musculus with 15 samples.

Results

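The data compared here come from the 2 ends of a label-dilution series in mouse hematopoietic stem cells (HSCs): the GFP4 bin and the GFP1 bin, 3 libraries each, 6 of the 15 libraries of the study. All mice were hCD34-tTA x TetO-H2BGFP animals, in which human CD34 regulatory sequence drives a tetracycline transactivator and the transactivator drives histone H2B joined to green fluorescent protein. Every mouse of both bins received doxycycline in the drinking water, which stops synthesis of the label, so that each later division dilutes it. The label can only be loaded in cells where the transgenic promoter was active. By the labels, replicates I, II and III of each bin came from mice of 5, 5.5 and 6.5 months after 12, 14 and 16 weeks of doxycycline. HSCs from crushed bones were sorted as LSK cells (no lineage markers, with Sca1 and c-Kit) that carried CD150 and lacked CD48 and Flk2, and then by green fluorescence. Besides the 2 end bins there were the intermediate bins GFP3 and GFP2 and the unsplit HSC sort, called Total, with 3 libraries each. Which bin number keeps the most label is not said in the labels. Higher numbers are taken here to mean more label, and all directions are given by bin name. The labels also do not say whether a library was 1 mouse or a pool, or whether bins of one replicate number share mice, so p-values measure only the spread between these libraries.

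An HSC that divides rarely keeps a stable histone label, while each division shares it between daughter cells. Adult HSCs are mostly in the non-dividing state called G0. To enter the cycle a cell builds up cyclin D with the kinases CDK4 and CDK6, inactivates the retinoblastoma protein family and frees the E2F transcription factors, which switch on the genes of DNA replication. The genes of mitosis follow later in the cycle. Inhibitors of cyclin-dependent kinases such as p57, TGF-beta, retinoic acid and several transcription factors are known for holding HSCs in G0. Megakaryocyte and erythroid genes, under GATA1 and its partners, are among the first lineage genes seen in the HSC compartment.

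Values are log2 expression per gene. The 352 immunoglobulin genes, with Jchain, were removed before the comparison, and the remaining 30946 genes were quantile normalized again over the 15 libraries. Before removal their share of each library's summed linear values was between 5.27% and 5.65% in GFP1, and between 4.54% and 6.01% in the Total libraries, compared with 0.00738% to 0.0826% in the 9 libraries of GFP4, GFP3 and GFP2. Without them, GFP1 libraries correlated with each other with Pearson's r between 0.968 and 0.975, GFP4 libraries with r between 0.963 and 0.976, and GFP1 with GFP4 libraries with r between 0.848 and 0.879 (across 10269 genes; genes are no replicates). On the first principal component, with 51.16% of the variance, the bins followed each other without overlap, GFP4 from −37.4 to −29.3, GFP3 from −22.9 to −11.2, GFP2 from −5.88 to 11.5 and GFP1 from 32.8 to 36.9. The second component (13%) set apart 5 libraries low in the Y-linked transcripts Ddx3y and Eif2s3y. These were replicate I of GFP3, GFP2, GFP1 and Total, and replicate II of GFP4. Ddx3y stood at 11.78, 3.20 and 11.75 in GFP4 and at 1.59, 11.48 and 11.35 in GFP1. The libraries low in Y-linked transcripts thus carry different replicate numbers, and different labelled ages and doxycycline times, in the 2 bins; the labels give no sex. An exchange of GFP4 replicates I and II and a difference in mice between the bins cannot be told apart, so each GFP4 value is given under its labelled number and its age and doxycycline time are uncertain for these 2 libraries. Counts over the 10 libraries high in Y-linked transcripts are therefore given beside the main counts. Transcripts of mature neutrophils were abundant in every bin, with the summed level of 18 neutrophil markers between 2997 and 7039 ppm of a library's summed linear values in GFP4 and between 3917 and 7015 ppm in GFP1.

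**Figure D1:**
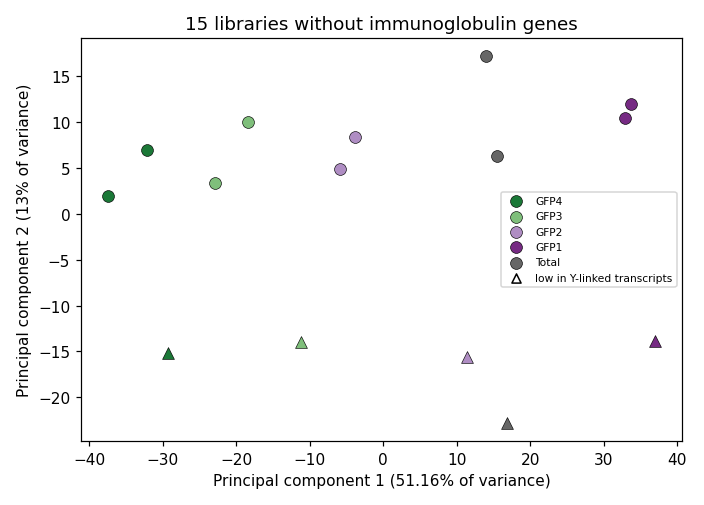
Principal components of the 15 libraries after removal of immunoglobulin genes, with the first component on the x axis and the second on the y axis, coloured by bin. The first component runs from GFP4 (−37.4 to −29.3) to GFP1 (32.8 to 36.9), and the 5 libraries drawn as triangles, low in Y-linked transcripts, lie lowest on the second.

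Of 27186 genes tested with limma, 2696 were higher in GFP1 than in GFP4 and 2523 were lower at an adjusted p under 0.05, which is 9.92% and 9.28% of the genes tested. Among them 983 rose and 871 fell at least 2-fold, and 368 rose and 194 fell at least 4-fold. The median log2 difference over all genes tested was −0.018. Calls were concentrated in genes with a high level: 1.68% of the genes under 1 ppm were called in either direction, 39.0% of those between 10 and 100 ppm and 44.9% of those above. Among the 10290 genes that averaged 10 ppm or more, 21.0% were higher and 19.5% lower, and the gene lists below, made up mostly of such genes, are best read against these shares. With only the 10 libraries high in Y-linked transcripts, 1981 genes were higher and 1774 lower. With immunoglobulin genes kept, 47.5% of all calls were higher in GFP1, against 51.7% after their removal; with them dropped but the normalization not repeated it was 45.6%.

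**Figure D2:**
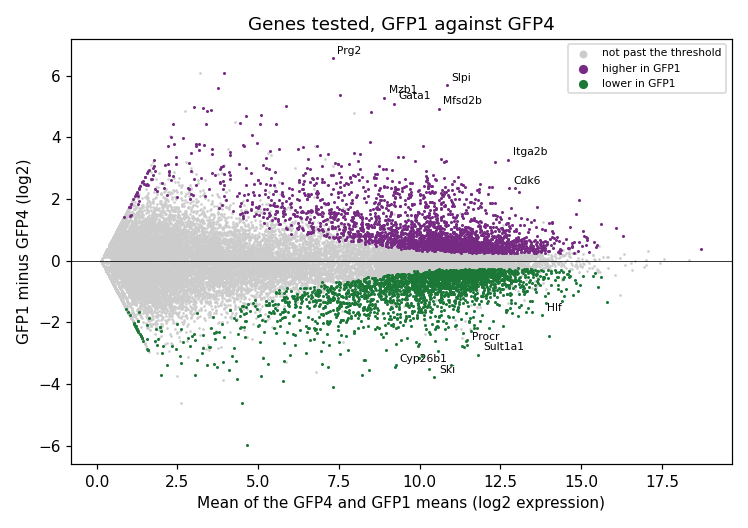
Difference between GFP1 and GFP4 (y axis, log2) against the mean of both bins (x axis, log2 expression) for the 27186 genes tested, with the 2696 higher genes in purple and the 2523 lower genes in green. Called genes lie on both sides in similar number, and the named genes at the top reach a difference of 6.57 (Prg2).

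GFP2, the bin next to GFP1, held about as little immunoglobulin transcript as GFP4. For part of the lists its counts against GFP4 are given beside those of GFP1, with the reminder that both comparisons use the same 3 GFP4 libraries. Over all genes, 2.78% were higher and 1.78% lower in GFP2 than in GFP4. In these bulk libraries, fewer cells of a kind and less RNA per cell cannot be told apart.

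For groups of genes that moved together, described further down, known regulatory letters were sought before the start sites. Windows of 150 bases directly before the start are shown for the 2 genes with the smallest p in each group whose window held the motif and no annotated exon; these genes were chosen after their values were seen. Sequences are from RefSeq (GRCm38.p6), 5′ to 3′ on the strand of the gene, with each motif match, on either strand, in capitals. In the first pair, replication genes that rose in GFP1, capitals mark an E2F site (TTTGGCGC, TTTGCCGC, TTTCGCGC or TTTCCCGC). Cdc6 loads the replicative helicase and Mcm5 is one of the helicase's subunits; their windows lie at chr11:98908001-98908150 (plus strand) and chr8:75109359-75109508 (plus strand).
Cdc6: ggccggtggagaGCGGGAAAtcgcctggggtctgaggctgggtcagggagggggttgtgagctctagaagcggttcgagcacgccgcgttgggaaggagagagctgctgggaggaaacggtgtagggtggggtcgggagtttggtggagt
Mcm5: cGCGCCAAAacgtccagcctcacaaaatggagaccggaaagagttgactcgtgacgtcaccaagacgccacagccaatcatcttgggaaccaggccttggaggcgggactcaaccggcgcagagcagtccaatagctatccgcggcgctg
In the second pair, mitotic genes that rose, capitals mark TTTGAA, the cell cycle homology region (CHR) read by repressor and activator complexes of the late cycle. Ckap2 encodes a spindle protein and Smc2 a condensin subunit; the windows lie at chr8:22185820-22185969 (minus strand) and chr4:52439071-52439220 (plus strand).
Ckap2: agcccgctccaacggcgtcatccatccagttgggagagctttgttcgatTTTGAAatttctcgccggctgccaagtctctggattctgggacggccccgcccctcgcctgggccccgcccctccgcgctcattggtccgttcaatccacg
Smc2: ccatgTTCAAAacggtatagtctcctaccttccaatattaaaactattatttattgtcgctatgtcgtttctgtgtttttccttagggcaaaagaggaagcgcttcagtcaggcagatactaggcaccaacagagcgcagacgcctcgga
The third pair are interferon-stimulated genes that fell, and capitals mark the interferon-stimulated response element (ISRE) core, GAAA and GAAA with 2 bases between them. Irgm2 and Gbp7 encode GTPases that act on intracellular pathogens; the windows lie at chr11:58214827-58214976 (plus strand) and chr3:142530186-142530335 (plus strand).
Irgm2: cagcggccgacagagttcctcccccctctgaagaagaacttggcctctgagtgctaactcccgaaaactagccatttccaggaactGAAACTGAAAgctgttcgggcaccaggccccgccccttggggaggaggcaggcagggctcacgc
Gbp7: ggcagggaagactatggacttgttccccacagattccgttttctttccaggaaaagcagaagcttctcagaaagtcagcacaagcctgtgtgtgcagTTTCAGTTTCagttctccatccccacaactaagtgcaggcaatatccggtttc
The fourth pair are erythroid and megakaryocyte regulators that rose, and capitals mark a GATA site (AGATAA or TGATAA). Epor encodes the erythropoietin receptor and Sphk1 a kinase that makes sphingosine 1-phosphate; the windows lie at chr9:21963577-21963726 (minus strand) and chr11:116532294-116532443 (plus strand).
Epor: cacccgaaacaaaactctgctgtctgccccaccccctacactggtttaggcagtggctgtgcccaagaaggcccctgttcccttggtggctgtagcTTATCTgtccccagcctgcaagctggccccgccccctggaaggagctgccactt
Sphk1: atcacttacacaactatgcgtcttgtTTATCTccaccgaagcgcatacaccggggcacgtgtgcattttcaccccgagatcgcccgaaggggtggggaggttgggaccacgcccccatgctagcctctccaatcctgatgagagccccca
Over the 250 bases before the start and both strands, an E2F site was found in 9 of 43 promoters of origin licensing and fork genes, or 20.9%, against 1.86% of all 32851 promoters. TTTGAA was found in 32 of 95 promoters of 3 mitotic lists (33.7%) against 16.0% of all, with 20 of 40 in the list of spindle genes and 4 of 29 in that of kinetochore genes. CCAAT was present in 68.4% of those mitotic promoters and in 33.8% of all. The ISRE core was present in 35.8% of 53 promoters of interferon-stimulated genes against 2.98% of all, and a GATA site in 41.9% of 31 promoters of erythroid and megakaryocyte regulators against 16.6%. A gene with several start sites adds several promoters, and a match describes letters only.

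Replication genes were higher in GFP1 in nearly every case. All 45 tested genes of origin licensing and the replication fork rose, with differences from 0.33 to 2.12 and a median of 1.38. Against GFP4, 39 of the same 45 were higher in GFP2 (median 0.76). Mcm2, a helicase subunit (chromosome 6, 88883474 to 88898780, GRCm38, as are all positions below), was 12.16, 12.30 and 12.14 in GFP4 replicates I, II and III and 13.74, 13.59 and 13.77 in GFP1. The 2 bins did not overlap, and the difference of 1.50 had a small error (SE 0.11, adjusted p = 8.55e-09). Uhrf1, which brings the maintenance DNA methyltransferase to new DNA, rose by 1.89 (SE 0.12, adjusted p = 2.79e-09), and Chaf1a, a chaperone that places histones behind the fork, rose by 1.85 (SE 0.13, adjusted p = 8.55e-09). The printed examples Cdc6 (log2 difference 2.03, SE 0.16, adjusted p = 2.46e-08) and Mcm5 (log2 difference 1.70, SE 0.13, adjusted p = 4.72e-08) were among the rising genes. Of 26 genes of nucleotide synthesis 24 rose (median 0.96). Rrm2, the regulated subunit of ribonucleotide reductase, rose by 1.91 (SE 0.15, adjusted p = 5.12e-08), and the folate enzyme Mthfd1 and the nucleoside diphosphate kinase Nme1 had differences of 1.10 and 1.26. Atic, of purine synthesis, was the most abundant member that did not pass (log2 difference 0.20, SE 0.091, adjusted p = 0.147). DNA repair and damage response genes rose in 27 of 32 cases (median 1.02), among them Fancd2 of crosslink repair (1.98) and the exonuclease Exo1 (1.65). Of the same 32, 12 were higher in GFP2 than in GFP4 (median 0.56).

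Mitotic genes had the 3 highest medians of the 48 lists. Of 30 kinases, cyclins and regulators of mitotic entry 28 rose, with a median of 2.27 (GFP2 against GFP4: 26 higher, median 1.40). Of 33 kinetochore and centromere genes 31 rose (median 1.96), and of 42 genes of the spindle, kinesins and cytokinesis 41 rose (median 2.17). In GFP2 against GFP4, 26 and 38 members of these last lists were higher. The summed level of the mitotic entry genes was 911 to 1075 ppm in the GFP4 libraries and 3426 to 4029 ppm in GFP1, with GFP3 (1146 to 1917 ppm) and GFP2 (1798 to 2559 ppm) between the ends. Plk1, the polo-like kinase of mitosis, added after its values were seen, read 8.88, 9.24 and 8.96 in GFP4 and 11.92, 11.57 and 11.93 in GFP1 (log2 difference 2.78, SE 0.24, adjusted p = 1.28e-06). All GFP1 libraries lay more than 2 log2 units above all GFP4 libraries. By smallest p the rule named Nek2, a centrosome kinase (2.42), the checkpoint protein Mad2l1 (1.54) and the checkpoint kinase Ttk (2.33). At the kinetochore, Incenp and Cdca8 of the chromosomal passenger complex differed by 1.87 and 2.36, and Ska3 by 2.26. Among spindle and division genes these were Racgap1 (1.70), the citron kinase Cit (2.06) and Tacc3 (2.01). Ckap2 and Smc2, whose promoter windows are printed above, differed by 2.29 and 1.26. One mitotic gene went the other way: Pttg1, which encodes securin, the inhibitor of separase, fell by 0.61 (SE 0.15, adjusted p = 0.00661), a call that held in all but 1 of 30 alternative settings. Lin54, a subunit of the complex that binds CHR sites (log2 difference 0.41, SE 0.16, adjusted p = 0.0954), Zwint (log2 difference 0.22, SE 0.09, adjusted p = 0.101) and Kif3b, a kinesin of transport (log2 difference −0.34, SE 0.15, adjusted p = 0.144), did not pass. Lin54 did in 4 alternatives and Zwint in 3. Mki67, the usual proliferation marker, likewise added after its values were seen, rose by 2.37 (SE 0.27, adjusted p = 5.11e-05).

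The machinery of G1 changed selectively. Cdk6, the kinase that partners D-type cyclins (chromosome 5, 3341485 to 3531008), stood at 11.66, 11.51 and 11.55 in GFP4, 12.42, 12.22 and 12.22 in GFP3, 13.01, 12.71 and 12.96 in GFP2 and 14.02, 13.95 and 13.81 in GFP1. It rose at each step between bins with no overlap of neighbours, and had the smallest p of all higher genes under the naming rule (log2 difference 2.35, SE 0.096, adjusted p = 9.67e-12). Of 25 G1 cyclins, kinases and E2F genes 15 rose and 2 fell. The repressor E2f8 (2.52) and the E2F partner Tfdp1 (1.00) rose. Ccnd2, a D-type cyclin, fell by 0.66 (SE 0.089, adjusted p = 1.69e-05) and E2f5, which works with the pocket protein p130, fell by 0.74 (SE 0.15, adjusted p = 0.00135). Ccnd3 was 13.71, 13.74 and 13.69 in GFP4 and 13.98, 13.74 and 13.92 in GFP1 and did not pass (log2 difference 0.17, SE 0.092, adjusted p = 0.255). Genes that restrain the cycle were split, with 5 higher and 6 lower of 22. These shares, 22.7% and 27.3%, are not far from the 21.0% and 19.5% over genes of 10 ppm or more. Cdkn1c, which encodes p57 (chromosome 7, 143458339 to 143461050), was 11.59, 11.36 and 11.62 in GFP4 and 9.32, 9.56 and 9.86 in GFP1, without overlap (log2 difference −1.94, SE 0.20, adjusted p = 2.48e-06). Ndn, the growth suppressor necdin, fell by 1.58 (SE 0.12, adjusted p = 2.07e-08), and Txnip, which binds thioredoxin and limits glucose uptake, fell by 1.34 (SE 0.12, adjusted p = 5.75e-07). The opposite change was found for Cdkn2c, which encodes the CDK4 and CDK6 inhibitor p18. It measured 7.87, 8.50 and 8.55 in GFP4 and 10.45, 10.61 and 11.03 in GFP1 (log2 difference 2.39, SE 0.21, adjusted p = 1.16e-07). The antiproliferative Btg2 (1.40) and the pocket protein gene Rbl1 (0.95) were also higher.

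**Figure D3:**
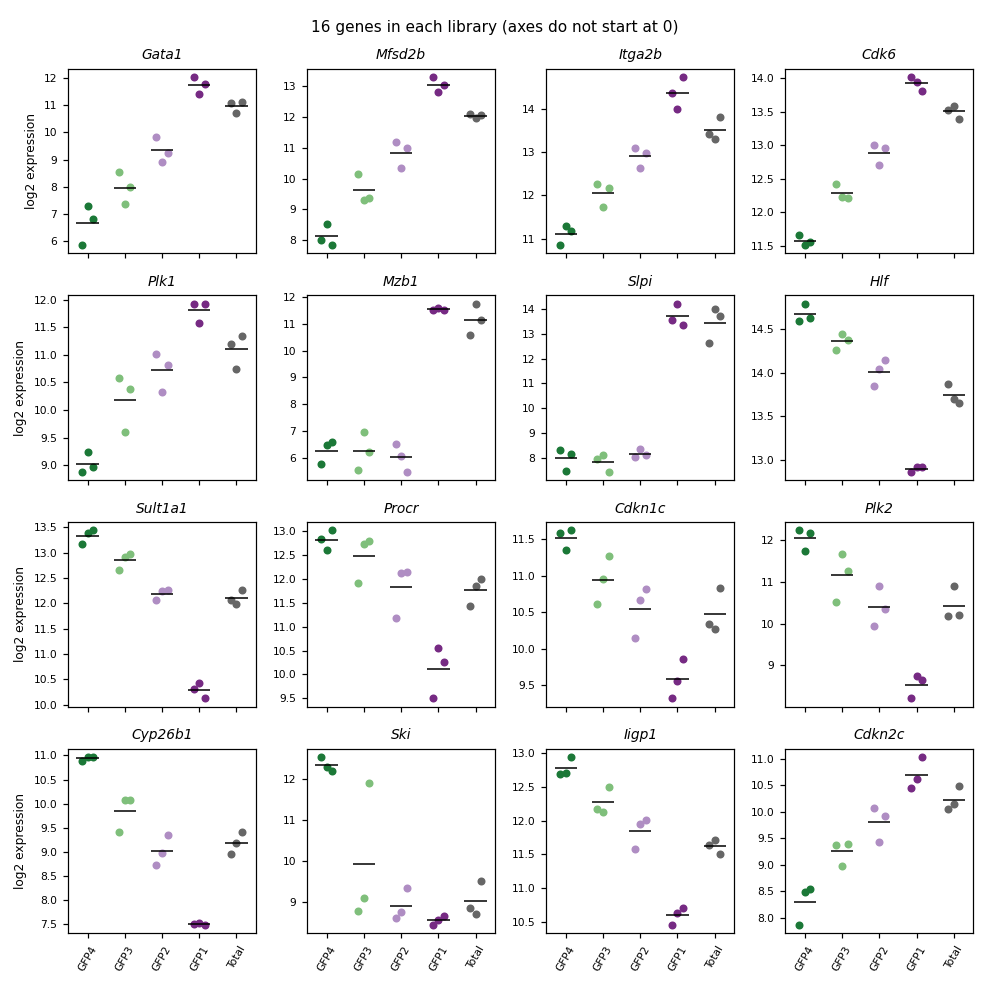
Log2 expression (y axis, not starting at 0) of 16 named genes in each of the 15 libraries by bin, with a line at the mean of each group of 3. Cdk6, Gata1, Mfsd2b, Itga2b and Plk1 step up from GFP4 to GFP1 and Hlf, Sult1a1 and Cyp26b1 step down, while Mzb1 and Slpi are near their GFP4 level in GFP3 and GFP2 and high in GFP1 and Total.

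Many genes that mark HSCs were lower in GFP1, and the genes of the sort markers were mixed. Kit, the stem cell factor receptor of the gate, was 15.66, 16.01 and 15.62 in GFP4 and 15.48, 15.31 and 15.38 in GFP1 and did not pass (log2 difference −0.38, SE 0.25, adjusted p = 0.408). Slamf1, which encodes CD150, had overlapping values (log2 difference −0.27, SE 0.11, adjusted p = 0.108) and passed in 3 of 30 alternatives. Ly6a, the gene of Sca1, fell by 0.91 (SE 0.22, adjusted p = 0.00968), and Flt3, the gene of the excluded Flk2, fell by 0.56 (SE 0.14, adjusted p = 0.0066). Cd48, whose protein was gated out, was low in both bins, at 8.53, 7.38 and 7.45 in GFP4 and 9.69, 10.33 and 9.60 in GFP1; its rise (log2 difference 2.09, SE 0.54, adjusted p = 0.0181) was lost in 4 of 30 alternatives. Cd34, absent from most adult mouse HSCs at the cell surface, rose by 0.97 (SE 0.095, adjusted p = 3.39e-07). Outside the gate, Procr, the endothelial protein C receptor (chromosome 2, 155751117 to 155755471), was 12.84, 12.61 and 13.02 in GFP4 and 9.50, 10.55 and 10.27 in GFP1, a wide gap with GFP1 replicate I lowest (log2 difference −2.72, SE 0.35, adjusted p = 0.00019). Fgd5, a guanine nucleotide exchange factor used as an HSC reporter, fell by 1.81 (SE 0.15, adjusted p = 7.83e-08). Tek, the angiopoietin receptor, was 11.60, 11.58 and 11.62 and 11.66, 11.39 and 11.49, overlapping (log2 difference −0.085, SE 0.1, adjusted p = 0.693), and Esam fell by 0.38 (SE 0.11, adjusted p = 0.0129), a call lost in 4 alternatives. Of 37 surface and enrichment genes 21 fell and 4 rose, the latter being Itga2b, Cd34, Cd48 and Cd9 (2 without GFP4 replicate II). Sult1a1, a sulfotransferase (chromosome 7, 126672865 to 126676432), had the smallest p of all falling genes, at 13.17, 13.39 and 13.44 in GFP4, 12.06, 12.24 and 12.26 in GFP2 and 10.31, 10.43 and 10.13 in GFP1 (log2 difference −3.04, SE 0.11, adjusted p = 3.27e-12). Mllt3, a reader of histone acylation that sustains HSCs, fell by 2.13 (SE 0.15, adjusted p = 2.55e-08), and the junction protein Jam3 fell by 1.92 (SE 0.15, adjusted p = 2.79e-08). Adgrg1, an adhesion receptor and one of the most abundant transcripts, did not pass (log2 difference −0.15, SE 0.16, adjusted p = 0.643). It did in 3 of 30 alternatives, and its difference ranged from −0.64 to −0.04 over them all.

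Transcription factors of HSCs fell in most cases. Of 36 tested, 24 fell and 1 rose, with a median of −0.81 (7 lower in GFP2 against GFP4, median −0.25). Their summed level was 5866 to 6269 ppm in GFP4 and 3914 to 4039 ppm in GFP1. Hlf, a leucine zipper factor that maintains HSCs (chromosome 11, 90336536 to 90390895), measured 14.59, 14.80 and 14.63 in GFP4, 14.26, 14.45 and 14.38 in GFP3, 13.85, 14.04 and 14.15 in GFP2 and 12.87, 12.92 and 12.91 in GFP1. No 2 neighbouring bins overlapped (log2 difference −1.77, SE 0.088, adjusted p = 1.33e-10). Mecom, which encodes the zinc finger factor EVI1, fell by 1.35 (SE 0.12, adjusted p = 6.74e-08), and the nuclear receptor Rora fell by 1.86 (SE 0.15, adjusted p = 3.92e-08). Meis1 was 14.53, 14.73 and 14.53 in GFP4 and 14.33, 14.26 and 14.15 in GFP1 and did not pass (log2 difference −0.35, SE 0.13, adjusted p = 0.0868), although it did in 8 of 30 alternatives.

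Imprinted genes, expressed from one parental copy and known for restraining growth in several stem cells, fell in 15 of 27 cases; their median was −0.83. In GFP2 against GFP4 the median was −0.44. By smallest p these were Ndn and Cdkn1c, given above, and Impact, a regulator of translation (log2 difference −1.06, SE 0.11, adjusted p = 8.70e-07). Gnas, the most abundant member not past the threshold, had a difference of 0.20 (adjusted p = 0.0579) and passed in 8 alternatives. With a filter at a mean of 10 ppm, which keeps fewer imprinted genes, 8 fell.

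The largest falls under the naming rule included genes whose middle bins were uneven. Plk2, a polo-like kinase induced by stress, was 12.23, 11.73 and 12.15 in GFP4 and 8.22, 8.74 and 8.65 in GFP1 (log2 difference −3.50, SE 0.33, adjusted p = 8.03e-06). Shisa9 (−4.09), the muscle-type gene Smtnl1 (−3.69) and the focal adhesion gene Tns2 (−3.39), the tight junction gene Cldn5 (−3.22) and the guanylate-binding proteins Gbp10 (−3.22) and Gbp9 (−2.92) also fell. Ski, a repressor of TGF-beta signalling, was 12.54, 12.29 and 12.20 in GFP4, 8.78, 9.11 and 11.89 in GFP3, 8.61, 8.75 and 9.33 in GFP2 and 8.44, 8.57 and 8.67 in GFP1 (log2 difference −3.78, SE 0.66, adjusted p = 0.00177). GFP3 replicate III lay near GFP4 and the other 2 GFP3 libraries near GFP1. Khdrbs3 (−3.54), Heca (−3.37), Cnnm3 (−3.14), Ranbp9 (−3.10) and the oxygen sensor Egln1 (−2.90) showed uneven middle bins of the same sort. These 6 calls were lost with the libraries high in Y-linked transcripts alone, where the adjusted p was between 0.0556 and 0.121, although the differences of these genes lay between −3.86 and −2.79 in all 30 alternatives. Over all called genes averaging 10 ppm or more, the range within GFP2 or GFP3 exceeded 2 log2 units for 15 lower and 3 higher genes. The 3 higher ones, named after their values were seen, were Cyp4f18, Irf4 and Prg2. By smallest p, and besides Sult1a1 and Hlf, the falling genes were Nceh1, a cholesterol ester hydrolase (−1.60), Cyp26b1, Tinagl1 (−2.20), Tnip3, an inhibitor of NF-kappa-B (−1.86), and the interferon-induced Iigp1, Gbp9, Ifi44 and Tgtp1.

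In 6 lists of receptors, signalling pathways and adhesion genes more members fell than rose, though in each list most members did not pass as lower. Of 36 cytokine and growth factor receptors 17 fell and 2 rose. Fgfr3 fell by 2.09 (SE 0.19, adjusted p = 1.69e-07) and the TNF receptor gene Tnfrsf1b fell by 0.94 (SE 0.098, adjusted p = 7.14e-07). Epor, printed above, went up from 7.37, 8.31 and 7.71 to 10.27, 10.06 and 10.29 (log2 difference 2.41, SE 0.19, adjusted p = 3.65e-08). In the JAK-STAT list 14 of 33 fell, with Stat2 (−0.91) and Stat4 (−0.75) among the first by p. 3 rose, the survival genes Bcl2 (log2 difference 0.84, SE 0.12, adjusted p = 1.95e-05) and Bcl2l1 (0.38) and the adaptor Sh2b2 (0.79); the last 2 missed the threshold in 2 alternatives and 1. The phosphatase gene Ptpn6 did not pass (log2 difference −0.20, SE 0.091, adjusted p = 0.145).

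In the TGF-beta, BMP and SMAD list 16 of 38 fell and 1 rose. The one that rose was the ligand gene Tgfb1, at 11.52, 11.58 and 11.46 in GFP4 and 13.13, 12.80 and 13.05 in GFP1 (log2 difference 1.47, SE 0.11, adjusted p = 1.40e-08). Genes that hold the latent ligand in the matrix went the other way: Ltbp4 fell by 1.96 (SE 0.19, adjusted p = 2.45e-07) and Ltbp3 fell by 0.95 (SE 0.11, adjusted p = 2.09e-06). Eng, which encodes the co-receptor endoglin, fell by 0.86 (SE 0.096, adjusted p = 1.66e-06), while Tgfbr3, the betaglycan gene, did not pass (log2 difference 0.25, SE 0.16, adjusted p = 0.387). Notch and Wnt pathway genes fell in 12 of 40 cases, among them the receptor Notch1 (log2 difference −1.18, SE 0.13, adjusted p = 1.19e-06), the Notch glycosyltransferase Lfng (−0.97) and the Wnt antagonist Sfrp1 (−1.73). In retinoic acid metabolism Cyp26b1, the enzyme that degrades retinoic acid, was 10.88, 10.96 and 10.97 in GFP4, 9.42, 10.07 and 10.08 in GFP3, 8.73, 8.98 and 9.34 in GFP2 and 7.50, 7.53 and 7.49 in GFP1. GFP1 libraries agreed within 0.1 log2 units and lay far below GFP4 (log2 difference −3.43, SE 0.19, adjusted p = 4.90e-10). The receptor Rarb fell by 1.82 (SE 0.21, adjusted p = 3.02e-06) and Rdh10, which makes the precursor retinal, fell by 1.01 (SE 0.13, adjusted p = 1.22e-05). Of 27 genes of this list 7 fell, or 25.9%, beside 19.5% over genes of 10 ppm or more. The 2 that rose (7.4%, beside 21.0%) included Retsat (log2 difference 0.33, SE 0.10, adjusted p = 0.0241; lost in 5 alternatives). Of 46 niche adhesion and chemokine receptor genes 11 fell, with Jam3, the guidance receptor Robo4 (−1.33) and Alcam (−1.79) first by p. That share of 23.9% is near the 19.5% over genes of 10 ppm or more. 6 rose, with Adgrg3 (1.74), the integrin Itgal (2.51) and the sphingosine phosphate receptor S1pr2 (0.89) first.

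Early erythroid and megakaryocyte genes included steep graded rises. Gata1, the transcription factor of both lineages (chromosome X, 7959260 to 7978071), was 5.87, 7.31 and 6.82 in GFP4, 8.55, 7.37 and 7.99 in GFP3, 9.85, 8.93 and 9.25 in GFP2, 12.04, 11.42 and 11.79 in GFP1 and 11.09, 10.73 and 11.12 in Total. Each bin had a higher mean than the one before, and GFP1 lay above all other libraries (log2 difference 5.08, SE 0.38, adjusted p = 6.74e-07). Mfsd2b, the erythroid and platelet sphingosine phosphate exporter (chromosome 12, 4862440 to 4874359), ran from 8.01, 8.53 and 7.85 in GFP4 to 13.31, 12.81 and 13.05 in GFP1 (log2 difference 4.92, SE 0.26, adjusted p = 2.31e-08). Slc22a3, an organic cation transporter, rose by 3.31 (SE 0.16, adjusted p = 1.23e-10). Klf1, the erythroid Kruppel-like factor, added after its values were seen, rose by 2.97 (SE 0.32, adjusted p = 3.62e-06). Of 30 regulators 17 rose and 4 fell (median 1.04), with 7 higher and 2 lower in GFP2 against GFP4 (median 0.25). Cnrip1 (−1.47) and Nfe2, a factor of platelet formation (log2 difference −0.38, SE 0.088, adjusted p = 0.00392), were among those that fell. Sphk1, printed above, measured 5.29, 6.47 and 5.84 in GFP4 and 8.85, 8.37 and 8.74 in GFP1 (log2 difference 2.79, SE 0.38, adjusted p = 1.88e-05).

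Platelet and late megakaryocyte genes rose in 19 and fell in 5 of 35 cases. Itga2b, which encodes the integrin CD41 (chromosome 11, 102453297 to 102470122), was 10.85, 11.29 and 11.16 in GFP4 and 14.37, 14.00 and 14.74 in GFP1 (log2 difference 3.27, SE 0.21, adjusted p = 1.73e-07). Tuba8, an alpha tubulin, rose by 3.74 (SE 0.17, adjusted p = 6.78e-11). The von Willebrand factor receptor genes Gp1bb (3.84) and Gp5 (2.90) and the thrombin receptor F2rl2 (3.06) rose as well. Not all genes of this class followed: Mmrn1, a platelet granule protein, fell by 0.99 (SE 0.14, adjusted p = 0.000114) and the myosin kinase Mylk fell by 1.50 (SE 0.15, adjusted p = 4.77e-07). Of 19 haemoglobin and other late erythroid genes 5 were higher, none of them at a filter of 10 ppm, and 2 lower. Their summed levels overlapped, at 675 to 1021 ppm in GFP4 and 637 to 841 ppm in GFP1. Tspo2, Cldn13, Kel and Trim58 (named after their values were seen) were among the higher ones and averaged under 10 ppm. Epb41, a membrane skeleton gene, fell by 0.52 (SE 0.10, adjusted p = 0.000928).

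Lists of other lineages were mixed. Granulocyte and monocyte priming genes rose in 4 of 27 cases, a smaller share than among all genes of 10 ppm or more, among them Ly6c2, Plac8 (log2 difference 1.92, SE 0.29, adjusted p = 0.000255) and the chaperone Calr (0.40). The lymphoid list was split 7 to 7 among 30 genes, or 23.3% each way, near the 21.0% and 19.5% over genes of 10 ppm or more. Tcf3 (0.56) and Mef2c (0.45), both transcription factors, rose, and Lsp1 (−1.03), Notch1 and Foxp1 (−0.45) fell; with the libraries high in Y-linked transcripts alone 4 rose. Among mast cell, basophil and eosinophil genes 7 of 24 rose, 3 without GFP4 replicate II or at a filter of 10 ppm, and 4 without GFP1 replicate III or with the libraries high in Y-linked transcripts alone. Prg2, the eosinophil major basic protein, had the largest difference of any named gene. Its values were 3.48, 3.67 and 4.92 in GFP4, 0.16, 9.49 and 3.09 in GFP2, 10.38, 10.75 and 10.66 in GFP1 and 10.02, 11.22 and 9.91 in Total. GFP2 replicate II was near Total while the other 2 GFP2 libraries were as low as GFP4 or lower (log2 difference 6.57, SE 1.98, adjusted p = 0.0414; lost in 17 of 30 alternatives, with adjusted p up to 0.116). Alox5, a leukotriene enzyme, rose by 0.92 (SE 0.25, adjusted p = 0.0115), lost in 2 alternatives. Rises outside these lists, named for their size or p, were those of the growth factor Fgf3 (4.82), the helicase Pif1 (3.45), the potassium channel Kcna3 (3.35), Emid1 (2.21), the transcription factor Runx3 (2.65), the lectin Lgals9 (1.31) and the MYC target Cdca7 (1.40).

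Genes of antibody-secreting cells set GFP1 apart even with immunoglobulin genes removed. Mzb1, a chaperone of the B cell secretory pathway (chromosome 18, 35647267 to 35649367), was 5.75, 6.46 and 6.58 in GFP4, 5.55, 6.97 and 6.21 in GFP3, 6.50, 6.05 and 5.48 in GFP2, 11.50, 11.61 and 11.51 in GFP1 and 10.57, 11.76 and 11.16 in Total. The first 3 bins overlapped, and GFP1 and Total lay far above them (log2 difference 5.28, SE 0.36, adjusted p = 3.51e-08). Slpi, a secreted protease inhibitor, read 8.33, 7.51 and 8.17 in GFP4, 8.04, 8.39 and 8.13 in GFP2 and 13.54, 14.20 and 13.34 in GFP1 (log2 difference 5.69, SE 0.35, adjusted p = 3.19e-07). Large rises were also measured for Derl3, of protein degradation from the secretory pathway (5.39), Slamf7, a surface receptor of plasma and NK cells (3.48), and Tnfrsf17, which encodes the plasma cell survival receptor BCMA (4.44). Of 35 plasma cell and secretory genes 30 rose (median 0.88), while 3 were higher in GFP2 than in GFP4 (median 0.019). Their summed level was 2814 to 2970 ppm in GFP4, 2910 to 3050 ppm in GFP2, 5082 to 5417 ppm in GFP1 and 4281 to 5085 ppm in Total. The regulators Prdm1 (log2 difference 2.46, SE 0.30, adjusted p = 4.10e-06), Irf4 (log2 difference 3.13, SE 0.62, adjusted p = 0.00253), Xbp1 (log2 difference 0.55, SE 0.11, adjusted p = 0.00127) and Pou2af1 (log2 difference 2.96, SE 0.37, adjusted p = 3.24e-05) rose, as did the surface proteoglycan Sdc1 (2.33) and Tnfrsf13b (0.39); Irf4 and Tnfrsf13b each missed the threshold in 1 alternative. Sdf2l1 (2.22) and Edem1 (1.76), which handle unfolded proteins in many cell types, had the smallest p.

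Summed levels of other lymphocyte markers were higher in GFP1 too, though single genes differed in course. B cell markers rose in 10 of 18 cases (median 1.45), with summed levels of 212 to 261 ppm in GFP4 and 395 to 626 ppm in GFP1. Cd79a, part of the B cell receptor, was 9.22, 9.44 and 8.93 in GFP4 and 11.91, 12.05 and 11.46 in GFP1 (log2 difference 2.61, SE 0.37, adjusted p = 0.000277). Ms4a1, which encodes CD20 (2.07), Fcmr (2.73) and the lymphoid surface gene Ly6d (3.36) also rose. T and NK cell markers rose in 14 of 28 cases, with summed levels of 145 to 153 ppm in GFP4 and 341 to 361 ppm in GFP1. Nkg7, a granule gene of cytotoxic cells, measured 9.50, 8.52 and 9.41 in GFP4, 10.32, 10.41 and 10.25 in GFP2 and 11.92, 12.58 and 12.49 in GFP1 (log2 difference 3.19, SE 0.26, adjusted p = 8.43e-07), Lat was called narrowly (log2 difference 0.38, SE 0.12, adjusted p = 0.0332; lost in 8 alternatives) and Klrb1c, the gene of NK1.1, fell by 2.09 (SE 0.24, adjusted p = 2.54e-06). The T and NK count rests on low genes and single libraries, falling to 6 without GFP4 replicate I, 7 without GFP4 replicate III, 5 without GFP1 replicate I, 8 without GFP1 replicate II, 9 with the libraries high in Y-linked transcripts alone and 2 at a filter of 10 ppm. Neutrophil and macrophage lists gave 1 higher gene each, Il1b (named after its values were seen) and Ly6c2 (log2 difference 2.18, SE 0.49, adjusted p = 0.00888; lost in 1 alternative), and Padi4 of the neutrophil list fell by 0.87 (SE 0.13, adjusted p = 6.33e-05). Endothelial and stromal genes, several of which HSCs share, fell in 6 of 25 cases, among them Emcn (−1.35) and Tie1 (−0.66). No plasma cell, B cell or T and NK marker was under a linear value of 1 in all 3 libraries of either bin. Genes had to reach that low value in 3 or more libraries to be tested, so it does not show that these markers were detected in GFP4. Of 28 T and NK markers, 1 stood at the lowest value of the library in GFP4 replicate I and 2 in GFP4 replicate II. The part of these cells' RNA in the other differences was not tested. In GFP2, where the summed plasma cell level was 2910 to 3050 ppm, 39 of 45 licensing genes and 38 of 42 spindle genes were higher than in GFP4. Other lists gave fewer calls there. Of 61 nuclear oxidative phosphorylation genes 6 were higher, of 37 tRNA synthetases 2 were higher, and of 36 HSC transcription factors 7 were lower. Fewer genes of any kind were called in GFP2 against GFP4. Over all genes tested 2.78% were higher and 1.78% lower, beside 9.92% and 9.28% in GFP1 against GFP4.

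**Figure D4:**
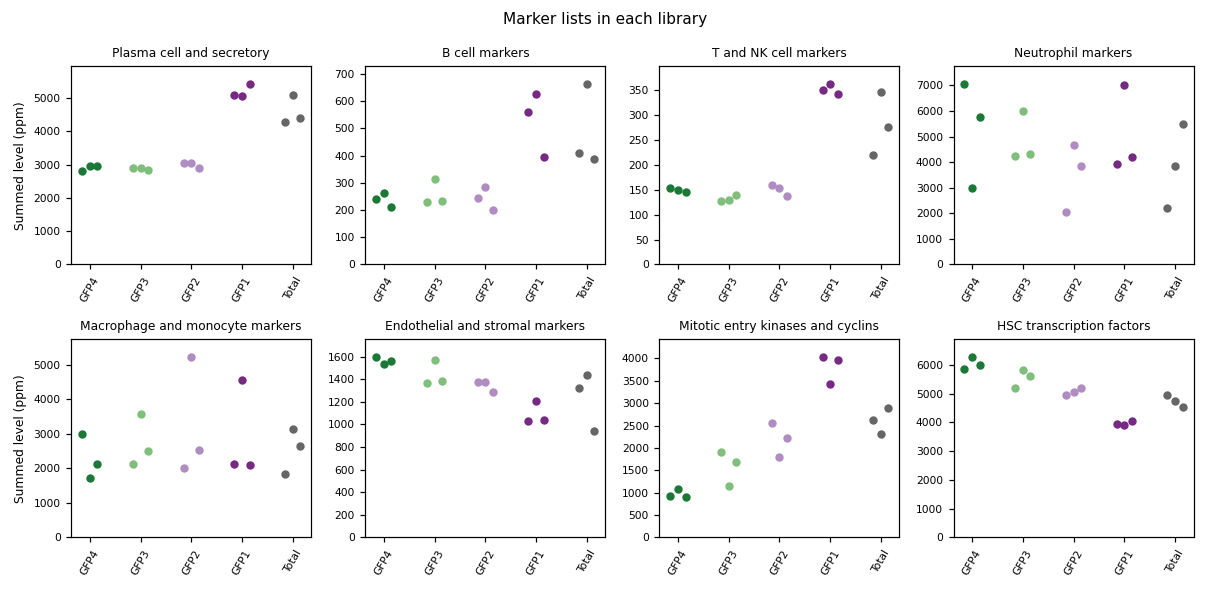
Summed level in ppm (y axis, from 0) of 8 gene lists in each library, by bin. Plasma cell, B cell and T and NK markers are flat from GFP4 to GFP2 and higher in GFP1, mitotic entry genes climb through the bins, HSC transcription factors decline, and neutrophil and macrophage markers vary between libraries of one bin.

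Interferon-stimulated genes had more falling members than any other of the 48 lists. Of 60 tested 41 fell and 1 rose, with a median of −0.64; 16 were lower in GFP2 than in GFP4 (median −0.25). Iigp1, an immunity-related GTPase (chromosome 18, 60376027 to 60392634), was 12.70, 12.71 and 12.95 in GFP4, 11.58, 11.95 and 12.02 in GFP2 and 10.45, 10.63 and 10.71 in GFP1, separate in every pair of these bins (log2 difference −2.19, SE 0.13, adjusted p = 9.25e-10). Ifi44 (log2 difference −1.62, SE 0.097, adjusted p = 1.42e-09), Tgtp1 (−1.80), the antiviral Oasl2 (−1.29) and the printed examples Irgm2 (log2 difference −1.41, SE 0.10, adjusted p = 1.05e-08) and Gbp7 (log2 difference −0.92, SE 0.077, adjusted p = 5.17e-08) fell too. The exception was Ifi27l2a, at 7.93, 7.88 and 7.58 in GFP4 and 9.59, 9.90 and 9.13 in GFP1 (log2 difference 1.74, SE 0.29, adjusted p = 0.000207). Antigen presentation genes fell in 11 of 27 cases, with the lipid-presenting Cd1d1 (−0.89), H2-T22 (−0.74) and Tapbpl, which edits peptides on class I molecules (−0.65), while B2m, their common light chain, was 17.10, 16.96 and 17.10 and 16.86, 16.86 and 16.86 and did not pass (log2 difference −0.20, SE 0.075, adjusted p = 0.075). B2m did pass in 6 of 30 alternatives, and its difference ranged from −0.67 to −0.17 over them all. H2-T22 belongs to a family of similar genes, so its value is uncertain.

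Stress-responsive genes split. Immediate early genes fell in 10 and rose in 5 of 37 cases, or 27.0% and 13.5%. Over genes of 10 ppm or more the shares were 19.5% lower and 21.0% higher, which are not far from these. The factor Klf6 fell by 1.01 (SE 0.14, adjusted p = 1.58e-05) and the NF-kappa-B inhibitor Nfkbia fell by 0.62 (SE 0.12, adjusted p = 0.00093), whereas Myc rose by 0.43 (SE 0.08, adjusted p = 0.000495) and Klf2 rose by 1.17 (SE 0.30, adjusted p = 0.00705). With the class of Y-linked transcripts in the model 16 fell, and 3 rose without GFP1 replicate III or GFP4 replicate I. Of 34 p53 targets 9 fell (4 with the libraries high in Y-linked transcripts alone) and 5 rose. These shares, 26.5% and 14.7%, are likewise not far from those over genes of 10 ppm or more. The stress-induced sestrins Sesn1 (log2 difference −0.93, SE 0.088, adjusted p = 2.36e-07) and Sesn3 (−1.05) fell and the mitotic Gtse1 (2.32) and the death-domain gene Pidd1 (1.49) rose. The FoxO and antioxidant list was split 7 higher to 14 lower of 40. Thioredoxin Txn1 (0.74) and the peroxiredoxins Prdx1 (0.51) and Prdx4 (0.69) rose, Srxn1, which repairs peroxiredoxins, fell by 1.21 (SE 0.12, adjusted p = 3.52e-07), and Gpx4 did not pass (log2 difference 0.12, SE 0.11, adjusted p = 0.587).

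Nuclear genes of oxidative phosphorylation rose in most cases, whereas no gene encoded in the organelle rose and most of those did not pass. Of 61 nuclear genes of oxidative phosphorylation 42 rose, by a median of 0.53 over the list. Of the same 61, 6 were higher in GFP2 than in GFP4 (median 0.29). Atp5b, a subunit of ATP synthase, was 14.66, 14.92 and 14.86 in GFP4 and 15.75, 15.38 and 15.48 in GFP1 (log2 difference 0.72, SE 0.092, adjusted p = 7.19e-06). Ndufa1 of complex I (1.10) and Atp5f1 (0.60) rose as well. Among 13 genes encoded in the organelle 3 fell, mt-Nd4 (log2 difference −0.61, SE 0.12, adjusted p = 0.000798), mt-Nd5 (−0.59) and mt-Nd4l (−0.55; lost in 3 alternatives), a share of 23.1% that is near the 19.5% over genes of 10 ppm or more. The list median of −0.47 ranged from −0.65 to −0.14 over the 30 alternatives. The count of falling genes was 7 with immunoglobulin genes kept, with them dropped but the normalization not repeated and with median-of-ratios rescaling, and 5 with the class of Y-linked transcripts in the model. Mitochondrial ribosome genes rose in 31 of 60 cases, among them Mrpl18 (1.03), Mrps28 (1.20) and Mrpl12 (1.03). That count was 18 without GFP4 replicate II or GFP1 replicate II, 20 without GFP1 replicate III or without trend and robust moderation, and 17 with the libraries high in Y-linked transcripts alone. Of the mitochondrial ribosome genes 6 were higher in GFP2 than in GFP4 (median 0.22). Glycolysis genes split 8 higher to 10 lower of 32, or 25.0% and 31.25%, beside 21.0% and 19.5% over genes of 10 ppm or more. The lactate dehydrogenase subunit Ldha rose by 0.66 (SE 0.095, adjusted p = 3.22e-05) and the lactate transporter Slc16a1 rose by 0.95 (SE 0.14, adjusted p = 4.32e-05). The other subunit Ldhb fell by 1.31 (SE 0.11, adjusted p = 4.82e-08) and the glucose transporter Slc2a1 fell by 1.02 (SE 0.11, adjusted p = 7.68e-07). Pgk1 (0.43) rose and Pdk2, which inhibits pyruvate dehydrogenase (−0.83), fell. Without GFP4 replicate I, and with the libraries high in Y-linked transcripts alone, the higher count was 5.

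Genes of ribosome biogenesis, tRNA charging and the proteasome rose in most cases, and cytosolic ribosomal protein genes gave few calls. Ribosome biogenesis genes rose in 35 of 51 cases (median 0.45), with Nhp2 (log2 difference 1.11, SE 0.12, adjusted p = 1.05e-06), Nop56 (0.67) and Ltv1 (0.82), and Imp3 was the one that fell (log2 difference −0.39, SE 0.12, adjusted p = 0.0338; lost in 7 alternatives). Cytosolic ribosomal proteins had a median of −0.10, with 1 higher and 5 lower of 76. Rpl7 fell by 0.34 (SE 0.08, adjusted p = 0.004) and Rps2 rose by 0.26 (SE 0.07, adjusted p = 0.0116); the lower count was 2 without GFP4 replicate III or GFP1 replicate III, 8 without GFP4 replicate II, 10 without GFP1 replicate II, 12 without Total replicate I and 15 with immunoglobulin genes kept. Ribosomal protein genes have many near-identical pseudogene copies, which could share their reads. tRNA synthetases rose in 21 of 37 cases, with Aars (0.90), Mars (1.09) and Gars (0.60) first, and in 13 without trend and robust moderation and 10 with the libraries high in Y-linked transcripts alone. Proteasome genes rose in 26 of 36 cases, with the activator Psme3 (log2 difference 0.66, SE 0.074, adjusted p = 1.48e-06) and the lid subunits Psmd13 (0.81) and Psmd14 (0.69). In GFP2 against GFP4, 12 ribosome biogenesis, 2 tRNA synthetase and 11 proteasome genes were higher (medians 0.27, 0.19 and 0.25). The plasma cell and secretory genes that rose in the same GFP1 libraries are beside these groups too, and their part was not tested.

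Lysosome and autophagy genes fell more often than they rose, and few cholesterol genes were called. Lysosome and autophagy genes fell in 16 of 50 cases, and in 10 without trend and robust moderation. Gabarapl1, an autophagosome protein, was 13.45, 13.33 and 13.56 in GFP4 and 12.11, 12.35 and 12.09 in GFP1 (log2 difference −1.26, SE 0.095, adjusted p = 1.87e-08), and the cathepsins Ctsf (−1.46) and Ctsl (−1.22) fell. Gusb, which encodes beta-glucuronidase, rose by 0.39 (SE 0.087, adjusted p = 0.00269). Cholesterol genes had 3 higher and 6 lower of 34, the latter 3 without GFP4 replicate III or GFP1 replicate I or with the libraries high in Y-linked transcripts alone. Insig1, which holds back sterol synthesis, fell by 0.71 (SE 0.12, adjusted p = 0.000113), and the synthesis enzymes Ebp (0.75) and Fdps (0.62) rose.

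Chromatin genes moved in both directions. Of 39 histone and histone chaperone genes 29 rose (median 0.80). Hist1h1b, a linker histone of S phase, measured 8.17, 8.05 and 8.05 in GFP4 and 10.77, 10.94 and 10.22 in GFP1 (log2 difference 2.56, SE 0.21, adjusted p = 5.25e-08), and the chaperone Asf1b rose by 2.16 (SE 0.17, adjusted p = 3.07e-08). H3f3b, which encodes the replacement histone H3.3 made outside replication, was 15.93, 15.69 and 16.19 and 15.46, 15.81 and 15.85 and did not pass (log2 difference −0.23, SE 0.17, adjusted p = 0.485). Replication-dependent histone genes are near-identical copies and their transcripts mostly lack poly(A) tails, so single members are uncertain. In Polycomb complex 2, the methyltransferase Ezh2 rose by 1.39 (SE 0.14, adjusted p = 6.40e-07) and its paralog Ezh1 fell by 1.21 (SE 0.10, adjusted p = 7.83e-08). 6 of 11 subunits rose (2 without trend and robust moderation, 3 with the libraries high in Y-linked transcripts alone), Suz12 (0.50) and Rbbp4 (0.35; lost in 3 alternatives) among them, and 2 fell, with the accessory subunit Phf1 (−1.50). In complex 1, 4 of 23 rose and 5 fell. These shares, 17.4% and 21.7%, are near the 21.0% and 19.5% over genes of 10 ppm or more. Without GFP4 replicate I or III or GFP1 replicate III 2 rose, and without Total replicate III 9 fell. Cbx7 fell by 1.27 (SE 0.11, adjusted p = 1.10e-07), Cbx6 (−1.11) and Bmi1 (−0.94) fell, and L3mbtl2 (0.79) and Pcgf6 (0.61), of a variant complex, rose. Cbx2 rose (log2 difference 0.54, SE 0.15, adjusted p = 0.0165; lost in 5 alternatives), and Rnf2, the main ubiquitin ligase, did not pass (log2 difference −0.32, SE 0.12, adjusted p = 0.0623). Rnf2 did pass in 8 of 30 alternatives. Among 23 genes of DNA methylation 9 rose, with the maintenance enzyme Dnmt1 (log2 difference 1.36, SE 0.11, adjusted p = 3.07e-08) and the base-excision enzyme Tdg (0.99), and 2 fell, Zbtb38 (−0.55) and Tet1 (log2 difference −0.41, SE 0.13, adjusted p = 0.0388; lost in 7 alternatives).

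**Figure D5:**
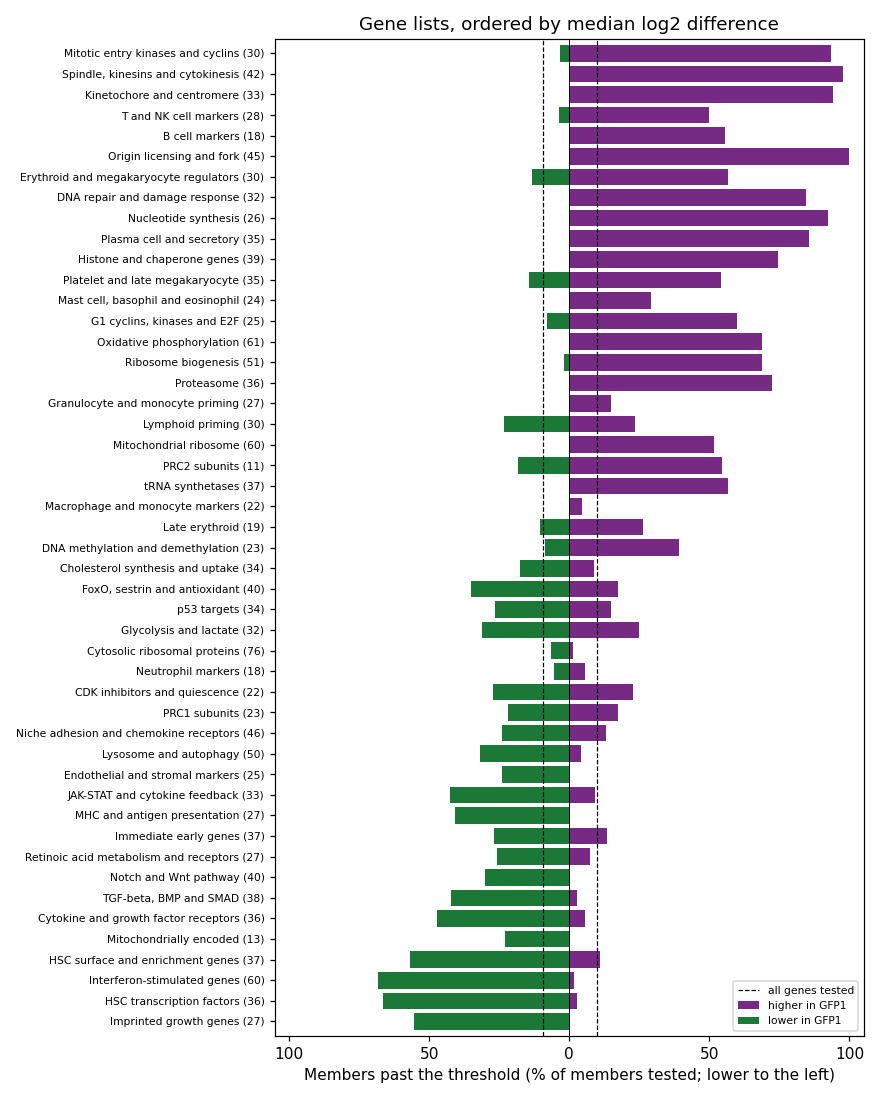
Share of each gene list called higher (purple, to the right) or lower (green, to the left) in GFP1 against GFP4, as percent of the members tested, ordered by median difference, with dashed lines at the shares over all genes tested (9.92% higher, 9.28% lower). The shares over genes of 10 ppm or more, 21.0% higher and 19.5% lower, are not drawn and are the closer background for most lists. Mitotic, licensing and nucleotide lists reach furthest to the right, and interferon-stimulated genes and HSC transcription factors furthest to the left.

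Length and GC content were taken from the longest annotated transcript of each gene, which need not be the one expressed in these cells. Among genes of at least 10 ppm, higher genes had shorter and lower genes longer such transcripts than the rest by their medians. GC content was close in all 3 classes. The median transcript length was 2954 bases for higher genes, 3866 bases for lower genes and 3496 bases for the rest, and the median GC content was 49.8%, 49.6% and 48.9%.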

How the data were processed

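RNA of sorted HSCs was amplified with SMART-Seq v4 and made into libraries with Nextera XT, per the labels' protocols; the submitters' processing notes name kallisto 0.43.0 and GRCm38. The authors deposited log2 values, 1 row per gene symbol; the unit before the logarithm is not given in the sources used here, and read depth is unknown. The deposited columns share one distribution, so differences in total RNA are lost. Symbols of immunoglobulin genes and Jchain (352) were dropped (Ighmbp2, a helicase gene, was kept) and the rest quantile normalized again. Linear values are 2 to the power of the value minus 1, and ppm is their share of the library's sum. Genes reaching a linear value of 1 in 3 or more libraries were fitted in limma 3.58.1 (R 4.3.3), 1 mean per group over 15 libraries (residual df 10), with trend and robust moderation and Benjamini-Hochberg adjustment over all genes tested at 0.05. The design had foreseen limma for this unit. SE is limma's moderated standard error, and differences are GFP1 minus GFP4 on the log2 scale, which understate low genes. The fit was tested on simulated data.

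Named genes were past the threshold, with non-overlapping bins, a mean of at least 10 ppm and no predicted-gene symbol: the 15 largest changes and 10 smallest p each way, and up to 3 each way from each of 48 lists by p, plus gate, HSC and plasma cell genes and abundant list members not past the threshold. Some genes taken by this rule are not reported here. The members, the 48 lists and the tests were chosen with earlier results of these data known. Positions are from GENCODE M21 and promoters from RefSeq. Alternatives covered immunoglobulin removal and normalization, filters, pseudocounts, library weights, moderation, the replicate block and each library left out; those using Y-linked transcripts were added after seeing the data.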

Additional observations from a re-analysis of the deposited data

Results flagged for a closer look

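Immunoglobulin genes, left out of the comparison, took a far larger share in the GFP1 libraries than in the GFP4 libraries. As deposited they took 5.27% of the summed linear values in the lowest GFP1 library and 5.65% in the highest. The GFP4 libraries held 0.00946%, 0.0492% and 0.0826%. Values share one distribution across libraries, so these are shares of ranked values and not of RNA.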

How the results depend on the processing

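Both counts of called genes stayed within 1.5 times of the reported values under all 30 alternatives. Higher genes numbered 1981 to 3034 and lower genes 1774 to 2988, the lowest with the 10 libraries high in Y-linked transcripts alone and the highest with array weights. Leaving out each library in turn gave 2110 to 2947 higher and 2060 to 2864 lower genes. The genes called changed more than these totals. With the libraries high in Y-linked transcripts alone, 68.19% of the 5219 reported calls were made again in the same direction. Without any 1 GFP1 or GFP4 library the share was 78.02% to 81.22%. Immunoglobulin genes kept gave 2596 higher and 2872 lower, and dropped without repeated normalization 2404 and 2870, with the median of all genes at −0.069 and −0.073. The replicate block gave 2907 higher and 2784 lower. The block used the labelled numbers, which do not meet the bar for pairing: deviations of same-numbered GFP1 and GFP4 libraries correlated at −0.098, −0.37 and 0.27, GFP1 replicate I correlated best with GFP4 replicate II (0.46) and GFP1 replicate II with GFP4 replicate III (0.22, against 0.19 with GFP4 replicate I), and of the 3 GFP1 libraries only replicate III correlated best with its own number. Of 226 genes taken by the naming rule or added and past the threshold 195 kept their call in every alternative and 31 lost it in at least 1; of 21 not past, 12 passed in at least 1. Of 52 list counts of 5 or more, 17 moved by over 1.5 times in at least 1 alternative, in 59 of 1560 values. No counting error can be given without read depth, and genes under 1 ppm were rarely called (1.68%).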
